A study of Mus musculus with 5 samples.

Results

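The genes described here are 10 that build and crosslink elastic fibres: Eln, Fbn1, Fbn2, Fbln1, Fbln2, Fbln5, Mfap2, Mfap4, Lox and Loxl1. They were taken as the non-control probes whose gene name in the array files is one of these symbols, which gave 16 probes for the 10 genes among 36413 genes and unnamed features on the array. All 10 were among the 26092 features tested, a feature being tested if some group had its brightest probe well above background on each of its arrays. RNA came from cells sorted from the muscle of C57BL/6 mice of the genotype DMD/MDX, in which dystrophin is mutated and which model Duchenne muscular dystrophy, so every group shares that mutation. The groups were CD34+/a7-integrin+/Sca1- muscle stem cells (MuSC) from mice given vehicle (1 array), CD34+/a7-integrin+/Sca1+ interstitial cells (Sca1+ cells) from mice given trichostatin A (TSA), a histone deacetylase inhibitor, by intraperitoneal injection at 0.6 mg per kg (2 arrays), and Sca1+ cells from mice given vehicle (2 arrays), all treated for 45 days. The labels give neither the age of the mice nor how many went into a sample, nor whether the replicates are different animals. The p-values therefore rest on the spread within the 2 pairs of Sca1+ arrays, which may be technical. A level is the log2 of a probe's processed signal over the 75th percentile of its array, so that 0 is the brightness of that percentile; levels of different genes come from different probes and are not compared.

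An elastic fibre has a core of crosslinked elastin laid on a scaffold of fibrillin microfibrils. Cells secrete tropoelastin, fibulins and microfibril-associated glycoproteins help to bring it to the microfibrils, and copper-dependent lysyl oxidases oxidise its lysines so that the chains become crosslinked; the same enzymes crosslink collagen. In skeletal muscle these proteins lie in the connective tissue around fibres and in vessel walls, where fibroblasts and smooth muscle cells are the known producers.

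The arrays carried 60-base probes, and 6 of the 10 genes had 2 of them. The Fbln5 pair is shown because its probes gave different readings. The first 30 bases of each, in lower case with nothing marked, were as follows, the first probe lying at chr12:102988153-102988212 and the second at chr12:102984878-102984937, both on the minus strand of mm9.
Fbln5 first probe: ttaagagtttttacccaactgtgttggaag
Fbln5 second probe: agacaaaactagaacatgacctcttttagt
The first was well above background on 5 of 5 arrays and stands for the gene below, while the second was so on 1 of 5 and is not used. The second probes of the other 5 genes were well above background on 5 of 5 arrays. Their MuSC differences lay within 0.79 of those of the first probe on the log2 scale, and their TSA differences within 0.28.

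Promoter windows, from 250 bases before to 50 after a transcription start, were held by RefSeq's table (GRCm38.p6) for 5 of the genes, in 8 windows. Windows of Mfap2, Fbn1 and Fbln2 are shown as 3 of the genes lower in MuSC that have a window with a GC box, and capitals mark the GC box GGGCGG on either strand. Mfap2 lies at chr4:141010431-141010730 on the plus strand, Fbn1 at chr2:125506389-125506688 on the minus strand and Fbln2 at chr6:91212514-91212813 on the plus strand.
Mfap2 promoter: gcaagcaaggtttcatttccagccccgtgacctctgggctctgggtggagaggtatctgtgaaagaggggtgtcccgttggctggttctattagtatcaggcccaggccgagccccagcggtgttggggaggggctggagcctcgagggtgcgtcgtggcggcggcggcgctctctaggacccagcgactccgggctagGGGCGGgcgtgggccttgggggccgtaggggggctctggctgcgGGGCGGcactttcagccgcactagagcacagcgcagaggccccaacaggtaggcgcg
Fbn1 promoter: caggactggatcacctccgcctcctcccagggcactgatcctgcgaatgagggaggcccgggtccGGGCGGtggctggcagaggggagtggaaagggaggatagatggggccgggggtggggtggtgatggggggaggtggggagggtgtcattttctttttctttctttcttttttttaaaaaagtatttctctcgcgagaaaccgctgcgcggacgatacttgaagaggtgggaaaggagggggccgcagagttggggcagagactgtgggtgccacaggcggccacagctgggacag
Fbln2 promoter: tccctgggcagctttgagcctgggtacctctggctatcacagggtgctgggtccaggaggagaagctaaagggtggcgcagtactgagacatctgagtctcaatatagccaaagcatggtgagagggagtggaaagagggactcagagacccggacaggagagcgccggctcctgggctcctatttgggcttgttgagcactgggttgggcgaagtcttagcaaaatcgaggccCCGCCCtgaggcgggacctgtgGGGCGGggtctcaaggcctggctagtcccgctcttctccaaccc
The GC box was found in 5 of the 8 windows and in 35.7% of all 32851 windows of this length. The E-box CANNTG was found in 6 of 8 against 72.3%, the CCAAT box CCAAT in 2 of 8 against 37.4%, the TATA box TATAAA in 0 of 8 against 13.6%, the AP-1 site TGANTCA in 0 of 8 against 7.81%, and the CArG box, to which serum response factor binds, in 0 of 8 against 1.63%. Both strands were searched, windows of 1 gene can overlap, and the shares describe letters in these windows only.

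The arrays lay on 2 slides, with replicate 1 of each group, the MuSC array included, on slide 1. Between 58.5% and 66.9% of spots were well above background, and the scaling value, each array's 75th percentile, was 240 on the MuSC array, 326 and 452 on the TSA arrays and 235 and 165 on the vehicle arrays. With so few arrays, their number sets the precision. Levels of the sorting markers and of Pdgfra were read in each group. Ly6a, which encodes Sca1, was at 1.46 in MuSC, at 5.89 and 5.71 in Sca1+ cells with TSA and at 6.46 and 6.59 with vehicle. Pdgfra, the receptor that marks fibroadipogenic progenitors, the fibroblast-like cells of the interstitium, was at −1.65, at 3.88 and 4.22, and at 4.83 and 4.87 in the same order. Itga7, the a7-integrin for which all groups were sorted, was at 7.02 in MuSC, at 4.53 and 4.59 with TSA and at 1.35 and 1.09 with vehicle. It thus differed from vehicle Sca1+ cells by 5.80 in MuSC and by 3.34 with TSA (limma adjusted p = 0.00537 for TSA), although every group was selected for it. Cd34, also selected for in every group, was at 4.47 in MuSC, at 6.85 and 7.05 with TSA and at 7.67 and 7.65 with vehicle, a difference of −3.19 for MuSC (limma adjusted p = 0.00221) and of −0.72 for TSA, which did not pass (0.114).

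The first comparison asked how the sorted populations differ, setting MuSC against Sca1+ cells with vehicle. Every one of the 10 genes was lower in MuSC: 10 of 10 passed as lower in limma (Benjamini-Hochberg adjusted p between 0.00149 and 0.0171), where 11.7% of all features passed as lower and 10.5% as higher, or 22.2% in either direction. Their median log2 difference was −3.55, against −0.04 over all features tested, and 9 of 10 lay below −1.88, the 5th percentile of all features. The single MuSC array was assumed to vary like the Sca1+ arrays, and levels of RNA in a sorted sample cannot tell fewer cells of a type from less RNA per cell. Within slide 1, where a MuSC and a vehicle array lie together, the 10 differences ran from −4.96 to −1.16.

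**Figure D1:**
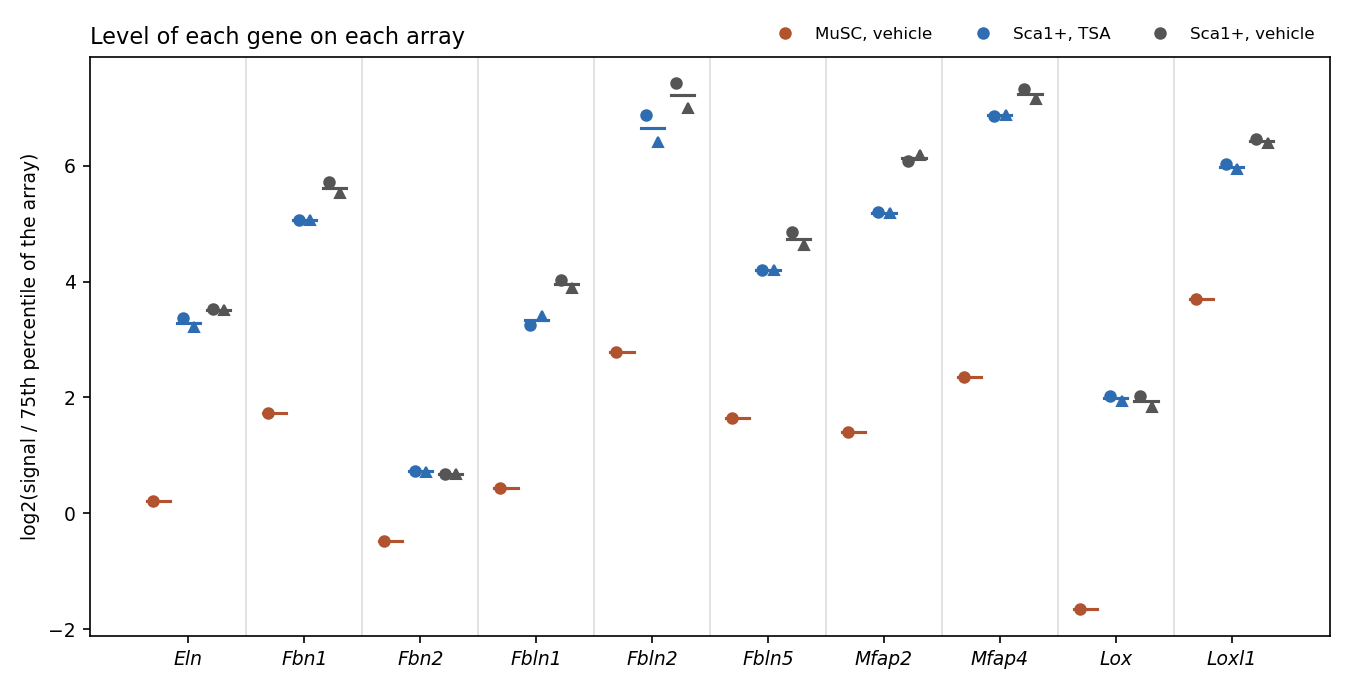
Level of each of the 10 genes on each array, as log2 of the signal over the array's 75th percentile (circles, replicate 1 on slide 1; triangles, replicate 2 on slide 2; horizontal lines, group means). The MuSC point is the lowest for every gene, and TSA and vehicle points of Sca1+ cells lie within about 1 log2 unit of each other.

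Eln, which encodes tropoelastin, was at 0.22 in MuSC, at 3.37 and 3.21 in Sca1+ cells with TSA and at 3.52 and 3.51 with vehicle. The MuSC array lay far below all 4 Sca1+ arrays. The difference from vehicle Sca1+ cells was −3.30 ± 0.19 (SE; 1 array against 2, limma adjusted p = 0.00197), 9.83-fold. The Eln probe lies on chromosome 5 at 135179129 to 135179188 (mm9).

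The fibrillins form the microfibril scaffold. Fbn1, the main fibrillin of adult tissue, was at 1.73 in MuSC, at 5.06 on both TSA arrays and at 5.71 and 5.53 with vehicle. MuSC was lower than vehicle Sca1+ cells by a log2 difference of −3.89 ± 0.19 (limma adjusted p = 0.00157). Fbn2, the fibrillin made mainly in development, was at −0.47 in MuSC, at 0.74 and 0.71 with TSA and at 0.69 and 0.68 with vehicle. It had the smallest MuSC difference of the 10 genes, −1.16 ± 0.18 (adjusted p = 0.0171) by this probe and −1.95 by its other probe. The call of Fbn2 did not hold with fewer arrays in the fit: adjusted p was 0.0549 and 0.0626 without a vehicle array and 0.0590 without either TSA array.

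The fibulins bridge elastin, microfibrils and cell surfaces. Fbln1, found in elastic fibres and basement membranes, was at 0.45 in MuSC, at 3.26 and 3.40 with TSA and at 4.02 and 3.89 with vehicle, and MuSC differed from vehicle by −3.51 ± 0.19 (limma adjusted p = 0.00182). Fbln2, a fibulin that binds fibrillin and basement membrane proteins, was at 2.79, at 6.88 and 6.41, and at 7.42 and 6.998 in the same order. Its replicates were the widest apart among the 10 genes, and the MuSC difference was −4.42 ± 0.32 (adjusted p = 0.00307). Fbln5, which binds tropoelastin and is needed for elastic fibre assembly in mice, was at 1.64 in MuSC, at 4.19 on both TSA arrays and at 4.86 and 4.62 with vehicle. It was 8.56-fold lower in MuSC than in vehicle Sca1+ cells (adjusted p = 0.00250).

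The microfibril-associated glycoproteins had the largest MuSC differences. Mfap4, which binds elastin and collagen, was at 2.36 in MuSC, at 6.86 and 6.87 with TSA and at 7.32 and 7.15 with vehicle, a difference of −4.88 ± 0.19 between MuSC and vehicle, or 29.4-fold (limma adjusted p = 0.00149). Mfap2, a small glycoprotein that binds fibrillin, was at 1.41 in MuSC, at 5.19 and 5.18 with TSA and at 6.08 and 6.18 with vehicle. The MuSC difference was −4.72 ± 0.18, 26.4-fold, by this probe and −4.39 by the other. The 3 groups did not overlap for Mfap2, with MuSC lowest and vehicle Sca1+ cells highest. This order held for 8 of the 10 genes, Mfap2 included. Over all features, TSA arrays lay below both vehicle arrays for 36.4%, and the MuSC array lay below both TSA arrays for 33.7%.

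Of the crosslinking enzymes, Lox, the founding lysyl oxidase, was at −1.65 in MuSC, at 2.02 and 1.95 in Sca1+ cells with TSA and at 2.03 and 1.84 with vehicle. TSA and vehicle arrays overlapped, and MuSC lay below them all, by −3.59 ± 0.20 against vehicle (limma adjusted p = 0.00181) and by −3.51 by the other probe. Loxl1, the family member that acts on elastin with fibulin-5, was at 3.70 in MuSC, at 6.03 and 5.93 with TSA and at 6.46 and 6.39 with vehicle. Its MuSC difference was −2.73 ± 0.18, 6.62-fold (adjusted p = 0.00266), and −2.66 by the other probe.

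The second comparison asked what TSA changed in Sca1+ cells. None of the 10 genes passed (limma adjusted p between 0.0642 and 0.882), where 0.268% of all features passed as lower and 2.71% as higher, or 2.98% in either direction. At an unadjusted p under 0.05, 5 of the 10 were lower and 0 higher, beside 12.7% and 10.5% of all features. That count of 5 became 1 without vehicle replicate 1 or TSA replicate 1, 2 without TSA replicate 2 or with normexp, and 3 in the deposited table. The count was 4 with no filter on dim probes and 6 with the slide as a replicate block. Over all features, the count in either direction was 6049 of 26092 in the main fit, 11269 with normexp and 7934 with the block. The TSA arrays lay below both vehicle arrays for 8 of 10 genes, beside 36.4% of all features, and above both for 1, Fbn2, beside 22.9%. The median log2 difference of the 10 was −0.50, against −0.13 over all features. With normexp background correction the split of calls over all features turned to 1263 higher and 5982 lower, and the median over all features moved to −0.25. A p that misses the threshold does not show that a gene did not differ.

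**Figure D2:**
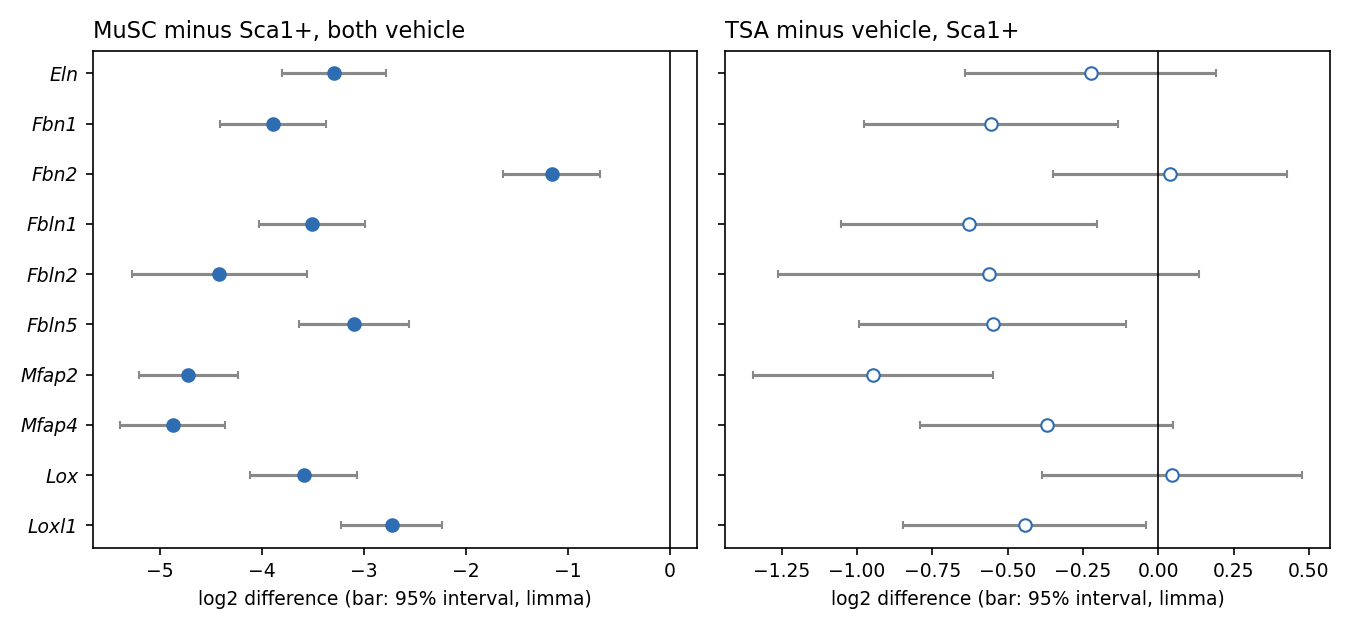
Log2 difference of each of the 10 genes for MuSC minus vehicle Sca1+ cells and for TSA minus vehicle in Sca1+ cells, with 95% intervals from limma (filled, adjusted p under 0.05; open, not passed). The 2 panels have different axes: MuSC differences run from −4.88 to −1.16 and TSA differences from −0.95 to 0.05.

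Mfap2 had the largest TSA difference, −0.95 ± 0.15 (SE, n = 2 arrays per group; 95% interval −1.35 to −0.55, limma adjusted p = 0.0642), and −0.97 by its other probe. No other of the 10 genes lay below −0.89, the 5th percentile of all features for this comparison. Mfap2 passed when only features well above background on all 5 arrays were tested (adjusted p = 0.0485) and with normexp (−0.75, adjusted p = 0.0213). With normexp, 5982 of 26092 features passed as lower. Mfap2 did not pass with no filter on dim probes (limma adjusted p = 0.176) or in the deposited table (0.0759). Nor did it pass with the mean of probes (0.0618) or the slide as a replicate block (0.0604). Leaving out 1 Sca1+ array gave Mfap2 differences from −0.999 to −0.896. Next came Fbln1 at −0.63 ± 0.16 (interval −1.05 to −0.20), Fbln2 at −0.56 ± 0.26 (−1.26 to 0.13), Fbn1 at −0.56 ± 0.16 (−0.98 to −0.13) and Fbln5 at −0.55 ± 0.16 (−0.99 to −0.11). Adjusted p for these 4 genes lay between 0.134 and 0.275.

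Loxl1 and Mfap4 differed by −0.44 ± 0.15 (interval −0.85 to −0.04) and −0.37 ± 0.16 (−0.79 to 0.05). The smallest differences were those of Eln, Lox and Fbn2. Eln differed by −0.22 ± 0.15 (interval −0.64 to 0.19; −0.0049 with normexp), Lox by 0.05 ± 0.16 (−0.38 to 0.48) and Fbn2 by 0.04 ± 0.14 (−0.35 to 0.43). Lox and Fbn2 had no settled sign, since their other probes gave −0.18 and −0.24.

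Within slides, the TSA difference was negative for 9 of 10 genes on slide 1 and for 8 of 10 on slide 2. Mfap2 differed by −0.89 on slide 1 and −1.005 on slide 2, Fbln1 by −0.76 and −0.49, Fbln2 by −0.54 and −0.59, Fbn1 by −0.65 and −0.46, and Fbln5 by −0.67 and −0.43. Loxl1 gave −0.43 and −0.46, Mfap4 −0.46 and −0.28, Eln −0.15 and −0.30, Fbn2 0.05 and 0.03, and Lox −0.01 and 0.11. The sign of Lox thus differed between the slides.

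**Figure D3:**
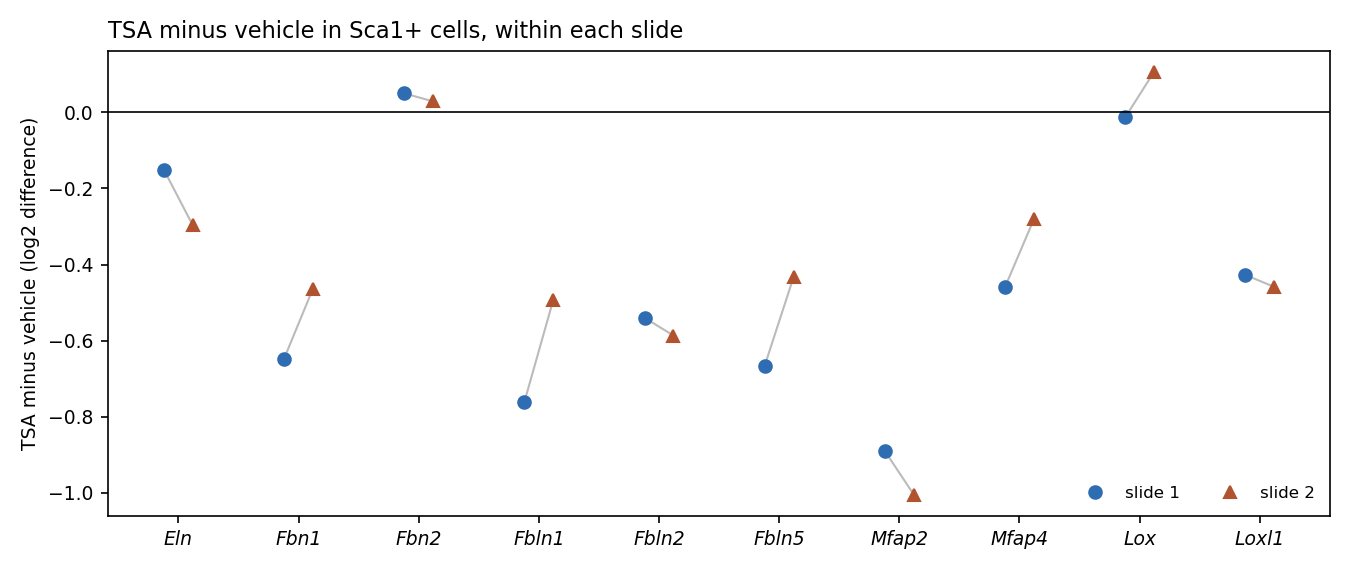
TSA minus vehicle in Sca1+ cells for each of the 10 genes within slide 1 (circles) and slide 2 (triangles), as log2 differences of single arrays. Mfap2 is the lowest on both slides, at −0.89 and −1.005, and Lox crosses 0.

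Despite these differences, both TSA arrays lay above the MuSC array for 10 of 10 genes, beside 33.7% of all features, as did both vehicle arrays, beside 44% of all features. Both comparisons share the vehicle arrays, so their values are set side by side only. Mfap2 had −4.72 in MuSC and −0.95 with TSA, Mfap4 −4.88 and −0.37, and Lox −3.59 and 0.05.

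Markers of other cells were read in both comparisons, and some lists moved in both while others did not. Of all features, 11.7% passed as lower and 10.5% as higher in MuSC, and 0.268% and 2.71% with TSA. Of 8 genes of fibroadipogenic progenitors, 8 were lower in MuSC with a median log2 difference of −4.31, and 2 were lower with TSA, Pi16 at −1.37 and Cd55 at −1.40, with a median of −1.01; both TSA calls ended without any 1 Sca1+ array and with no filter on dim probes (adjusted p = 0.131 and 0.113), and that of Pi16 in the deposited table (0.0741). Their summed level, as log2, was 8.12 in MuSC, 10.80 and 10.85 with TSA and 11.49 and 12.12 with vehicle. A summed level adds the unlogged signals of a list's probes, so the brightest probe weighs most. Of 9 genes of smooth muscle and pericytes, 8 were higher and 1 lower in MuSC and 7 were higher with TSA (medians 5.28 and 3.77), with a summed level of 10.69 in MuSC, 9.29 and 9.17 with TSA and 6.02 and 6.13 with vehicle. Myh11, smooth muscle myosin, was at 5.76 in MuSC, at 3.98 and 3.83 with TSA and at −1.77 and −1.89 with vehicle. Of 6 satellite and myogenic genes, 6 were higher in MuSC and 5 with TSA, the summed level being 6.47 in MuSC, 2.58 and 2.77 with TSA and −1.61 and −1.37 with vehicle. With vehicle, Calcr and Myf5 were well above background on neither array and Pax7 on 1 of 2. Calcr, Myf5 and Pax7 were thus tested through the other groups, and the vehicle sums include values below background. For tendon and perimysial fibroblasts, 3 of 5 genes were lower and 1 higher in MuSC and 0 passed with TSA, and the summed level was 5.11 in MuSC, 7.26 and 7.21 with TSA and 7.43 and 7.20 with vehicle. Of 5 mast cell genes, 0 were higher and 1 lower in MuSC and 4 were higher with TSA. Their summed level was −2.32 in MuSC, 4.80 and 4.68 with TSA and −0.59 and −0.66 with vehicle. Cpa3, Cma1 and Fcer1a were well above background throughout a group only with TSA, so they were tested through that group. On the MuSC array Kit alone was well above background, so the MuSC sum includes values below background. Of 4 red cell genes, 3 were lower in MuSC and 4 higher with TSA, at a summed level of 4.35 in MuSC, 9.67 and 9.71 with TSA and 5.66 and 5.68 with vehicle. Of 5 Schwann cell genes, 5 were higher in MuSC and 4 with TSA, at 5.14 in MuSC, 3.58 and 3.55 with TSA and 1.55 and 1.54 with vehicle. Endothelial genes gave 1 of 6 higher and 4 lower in MuSC and 1 higher with TSA, with median log2 differences of −1.30 and 0.61. Their summed level, in which Kdr was the brightest, was 5.44 in MuSC, 6.30 and 6.29 with TSA and 5.83 and 6.56 with vehicle. Macrophage genes gave 1 of 5 lower in MuSC and 0 with TSA, with median log2 differences of −0.42 and −0.09. Their summed level, in which Itgam was the brightest, was 6.21 in MuSC, 6.87 and 6.93 with TSA and 7.36 and 7.87 with vehicle. Without either TSA array, 0 of all features passed for TSA in limma, these markers included (4915 and 3101 features at an unadjusted p under 0.05). Their part in the results on elastic fibre genes was not tested.

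Other genes of elastic fibres were read next, from lists chosen with earlier results of these data known. Of 18 further elastic fibre and microfibril genes tested, 13 were lower and 2 higher in MuSC, beside 11.7% and 10.5% of all features. The median of the 18 was −1.67. The largest decreases were those of Mfap5, a second fibrillin-binding glycoprotein (−4.78 ± 0.20), Emilin2, an elastin-associated glycoprotein (−4.77 ± 0.18), and Fbln7, another fibulin (−4.64 ± 0.20; limma adjusted p 0.00148 to 0.00149). With TSA, these 3 differed by −0.69, −0.90 and −0.87 and did not pass. Emilin2 and Fbln7 passed with normexp, where 5982 of 26092 features passed as lower. With no filter on dim probes, limma adjusted p was 0.186 for Emilin2 and 0.216 for Fbln7. The 2 genes higher in MuSC were Thsd4 and Emilin3, and Emilin3 differed by 0.96 ± 0.18 (adjusted p = 0.0300). The Emilin3 call ended with normexp (0.47, adjusted p = 0.247), with no filter on dim probes (0.0861), with only the 2 groups compared (0.0860) and without any 1 Sca1+ array (0.0802 to 0.0860).

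Thsd4, an ADAMTS-like protein that promotes fibrillin microfibrils, passed as higher with TSA, as 1 of these 18 genes, beside 2.71% of all features. It was at 0.55 in MuSC, at −1.77 and −2.28 with TSA and at −6.48 and −6.55 with vehicle, where it was not well above background on either array. It was therefore at least 33.7-fold higher in MuSC and at least 5.64-fold higher with TSA than in vehicle Sca1+ cells. Both bounds are group means against the lowest signal called well above background. The limma adjusted p, 0.00149 for MuSC and 0.00537 for TSA, came from the vehicle values below background and not from these bounds. Thsd4 was tested only because it was well above background in the other groups. These bounds did not hold with normexp, where the log2 difference was 2.36 for MuSC, which passed, and 0.49 for TSA, which did not (adjusted p = 0.0843). The TSA call also ended without either TSA array (0.0712 and 0.0691). Ltbp2, a latent TGF-beta binding protein family member found on microfibrils and named after its values were seen, was at 0.61 in MuSC, at 5.16 and 5.30 with TSA and at 4.18 and 4.01 with vehicle. The TSA arrays lay above both vehicle arrays, by 1.14 ± 0.16 (adjusted p = 0.0523), and the MuSC difference was −3.49 ± 0.20 (adjusted p = 0.00196). Ltbp2 passed with TSA in the deposited table (adjusted p = 0.0342), with features well above background on all arrays (0.0396) and with normexp (6.19e-05). With normexp, 1263 of 26092 features passed as higher. Ltbp2 did not pass with no filter on dim probes (0.152), the mean of probes (0.0507) or the slide as a replicate block (0.0525). Leaving out 1 Sca1+ array gave Ltbp2 differences from 1.05 to 1.23.

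Of 14 further crosslinking enzymes and their activators tested, 11 were lower and 1 higher in MuSC, beside 11.7% and 10.5% of all features. The median of the 14 was −2.29. Pcolce2, an enhancer of procollagen processing, differed by −4.58 ± 0.19, Postn (periostin, a matrix protein that brings together the protease Bmp1 and its substrate, the lysyl oxidase precursor) by −3.52 ± 0.23, and Loxl2, another lysyl oxidase family member, by −3.32 ± 0.20 (limma adjusted p 0.00149 to 0.00259). The 4 probes of Loxl2 ranged from −3.40 to −0.34. Tgm2, the transglutaminase that links proteins through glutamine and lysine, passed as higher in both comparisons. It was at 5.14 in MuSC, at 5.15 and 5.32 with TSA and at 3.91 and 3.95 with vehicle, a difference of 1.21 ± 0.19 for MuSC (adjusted p = 0.0188) and 1.30 ± 0.16 for TSA (adjusted p = 0.0358). The TSA call of Tgm2 ended without any 1 of the 4 Sca1+ arrays (adjusted p between 0.121 and 0.242), and the MuSC call likewise (0.0557 to 0.0657). Both also ended with no filter on dim probes (0.113 for TSA and 0.0573 for MuSC), and the MuSC call with only the 2 groups compared (0.0557). With TSA, 1 of the 14 genes was higher and 0 lower, beside 2.71% and 0.268% of all features, and the median of the 14 was −0.34.

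**Figure D4:**
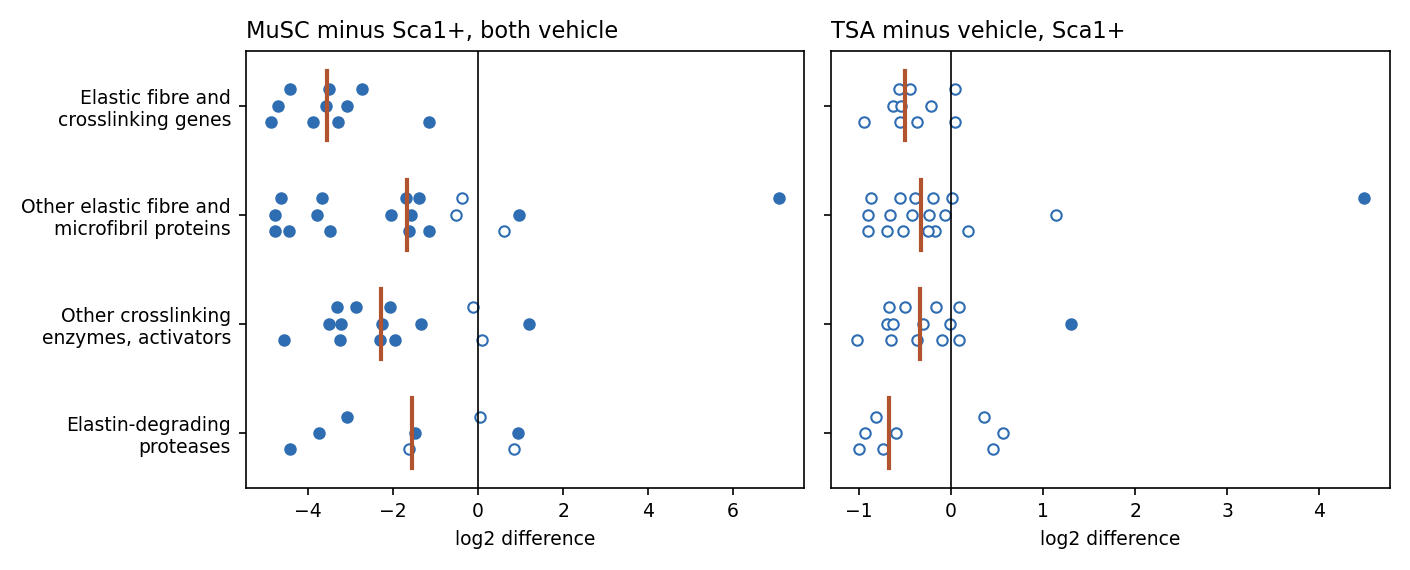
Log2 differences of the tested genes of 4 lists for MuSC minus vehicle Sca1+ cells and for TSA minus vehicle in Sca1+ cells (each point 1 gene; filled, limma adjusted p under 0.05; vertical bars, list medians). The 10 elastic fibre and crosslinking genes lie left of 0 in MuSC, and the points far right are Thsd4, which was not well above background with vehicle.

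Genes with the pattern most like a member were sought over the 5 arrays, among 14706 named genes, by the root mean square difference of log2 levels centred on each gene's mean. For Eln they were Dchs1 (0.041), Trim30 (0.048), Trim79 (0.070), Kcnk6 (0.078) and Loxl4 (0.079), the last a lysyl oxidase family member. For Lox they were Fgf9 (0.065), Tac1 (0.084), Zmynd15 (0.094), Galr2 (0.095) and Angptl7 (0.112). Eln itself differed by −3.30 in MuSC and −0.22 with TSA, and Lox by −3.59 and 0.05. The likeness therefore rests mostly on the drop in the single MuSC array, and shared regulation was not tested.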

How the data were processed

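Arrays were of 1 colour with Cy3. Per the file headers, Agilent Feature Extraction 10.7.3.1 read the spot intensities, subtracted background and detrended each array; positions are in mm9. The authors' deposited table holds log2 values; it ranked probes as the scanner signal did, and its columns share 1 distribution (median 4.67), as quantile normalization gives, by a tool not given in the sources used here.

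Values were log2 of the processed intensity minus each array's 75th percentile over 59305 non-control spots, without outlier spots. Gene names are those of the files, and a gene's probe with the highest mean stood for it. limma 3.58.1 (R 4.3.3, lmFit, eBayes, two-sided) was fitted to 26092 features over 5 arrays in 3 groups, leaving 2 residual degrees of freedom, with Benjamini-Hochberg adjustment over all features, and was tested on simulated data. For a group in which a probe did not exceed background, the fold is a lower bound. Named list genes were the up to 3 largest calls per list, direction and comparison. The members and lists were chosen with earlier results of these data known. For normexp (offset 50) the median spot signal was used, because 3 of 5 files alone give the mean. Replicate numbers coincide with slides, and 2 pairs are too few to settle a pairing (deviations correlated at 0.348 across features). Alternatives changed background correction, normalization, filter, probe choice, outlier spots, block and arrays.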

Additional observations from a re-analysis of the deposited data

How the results depend on the processing

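For MuSC against vehicle Sca1+ cells, 10 of 10 genes stayed lower under each alternative; 10 passed with normexp, the deposited table, the strict filter (well above background on all 5 arrays), the mean of probes, outlier spots kept and the slide as a replicate block, and 9 (all but Fbn2) with no filter, with only the 2 groups compared and without any 1 Sca1+ array. Over all features, 2738 higher and 3045 lower became 1572 and 1809 with no filter and 1592 and 1838 with the 2 groups alone; leaving out 1 array gave 1592 to 2011 higher and 1838 to 2288 lower, with 1592 to 1612 higher and 1838 to 1844 lower without vehicle replicate 2 or either TSA array. For TSA, 1 of the 10 genes (Mfap2) passed as lower with normexp and with the strict filter, and 0 under the others. Over all features 708 higher and 70 lower became 1263 and 5982 with normexp, 280 and 3 with no filter, and 166 lower with the slide as a replicate block; leaving out 1 array gave 0 to 319 higher and 0 to 2 lower, with 319 and 256 higher without vehicle replicates 1 and 2 and 0 without either TSA array. The replicate block changed no call of the 10 genes. A group of 1 array adds nothing to the spread, so some alternatives are the same fit and not separate checks. For TSA, comparing only the 2 groups equals the main fit. For MuSC, comparing only the 2 groups equals leaving out either TSA array. TSA differences that turned sign were Fbn2 (−0.099) and Lox (−0.065) with the mean of probes and Lox without vehicle replicate 2 (leaving out 1 array gave Lox −0.050 to 0.14); the cause was not tested, beyond the second probes given above. The chosen probes of all 10 genes were well above background on all 5 arrays, but background correction moved the size of some differences. With normexp, the MuSC difference of Lox was −2.76 against −3.59, and that of Fbn2 −0.84 against −1.16. The TSA difference of Eln was −0.0049 against −0.22, and that of Lox 0.24 against 0.05.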

Other observations

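Proteases that can degrade elastin were also measured. Of 8 tested, 4 were lower and 1 higher in MuSC than in vehicle Sca1+ cells, beside 11.7% and 10.5% of all features. Their median log2 difference was −1.56. Ctsk (cathepsin K) was at 2.63 in MuSC, against 7.17 and 6.92 with vehicle, Mmp2 (gelatinase A) at 3.02, against 6.81 and 6.72, and Mmp14, which activates Mmp2, at 0.78, against 3.96 and 3.77 (limma adjusted p between 0.00150 and 0.00265). Mmp12, macrophage elastase, was higher in MuSC by 0.95 ± 0.18 (adjusted p = 0.0298) by 1 probe, and its other probe did not pass as above background anywhere. The Mmp12 call ended with normexp (0.38, adjusted p = 0.376), with the mean of probes (0.52, 0.331), with no filter on dim probes (0.0864), with only the 2 groups compared (0.0855) and without any 1 Sca1+ array (0.0768 to 0.0943). With TSA, 0 of the 8 passed in limma, beside 2.98% of all features, and the median of the 8 was −0.67. Ctsk was at 6.35 and 6.26 with TSA, Mmp2 at 5.80 and 5.71, and Mmp14 at 3.01 and 2.84. Each lay below both vehicle arrays, as did 36.4% of all features. All 3 passed as lower with normexp, where 5982 of 26092 features did. Mmp2 alone of the 3 passed with features well above background on all 5 arrays (limma adjusted p = 0.0448). With no filter on dim probes, limma adjusted p was 0.261 for Ctsk, 0.168 for Mmp2 and 0.202 for Mmp14.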
